A study of Caenorhabditis elegans with 34 samples.

Results

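Of the 16762 rows of the deposited expression tables of Caenorhabditis elegans, 200 rows were followed because their level was lower in sorted intestinal cells than in the remaining cells at each of 3 stages. For each stage the difference E was the log2 ratio of the mean normalised count in GFP-positive cells to that in GFP-negative cells, with a pseudocount of 10 on both. Rows with a GFP-negative mean of at least 50 in embryo, L1 and L3 were eligible, which left 8663, and the 200 whose largest E over the 3 stages was lowest were taken. They are called the GFP-low rows here. The rows were thus chosen by the sorted-cell values themselves. A row is named by its position in the table, counted from 1, because its line has no gene identifier and nothing in the files ties a line to a gene. No gene name, function or sequence is therefore given, and the lists of tissue genes could not be applied.

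The study measured polyadenylated RNA at 3 stages, mixed embryos and the larval stages L1 and L3, to describe the transcriptome of the intestine. All groups, controls included, were strain JM149, which carries the integrated transgene caIs71. In it the promoter elt-2p drives green fluorescent protein (GFP) joined to the histone HIS-2B in intestinal nuclei, followed by the 3'UTR of unc-54. The transgene also holds rol-6(su1006), a dominant collagen allele used as a visible marker. At each stage 4 fractions were prepared: 300000 sorted GFP-positive cells, 1000000 sorted GFP-negative cells, 70 ul of dissociated but unsorted cells, and whole animals as a packed pellet of 10 ul. Embryos were dissociated with chitinase for 20 min, then pronase E for 5 min and 100 strokes of a syringe needle. Larvae were dissociated with SDS-DTT for 2 min, then pronase E for 30 min and 100 strokes of a dounce. The stage and the protocol of dissociation therefore cannot be told apart between embryos and larvae. Each library came from many animals of 1 strain, and the labels call the libraries biological replicates.

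The C. elegans intestine is a tube of large epithelial cells that descends from a single embryonic founder cell, the E blastomere. The GATA transcription factor ELT-2 is made there from early embryogenesis through adulthood and drives genes of digestion, defence and nutrient storage, so a reporter under its promoter marks the organ at every stage. GFP-negative cells pool the other tissues, among them epidermis, body wall muscle, neurons, pharynx and the germ line. A low level in GFP-positive cells thus does not name the tissue in which a row is expressed.

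The tables held 30 of 34 labelled libraries, and the other 4, all of L1 replicate 2, were not analysed here. GFP-positive and GFP-negative cells had 3 libraries each in embryo, 2 in L1 and 3 in L3, and dissociated cells and whole animals had 2, 2 and 3. Totals ran from 10994387 to 49400873 counts per library. A HiSeq X-ten sequenced replicate 1 of L1, and a NovaSeq sequenced its replicate 3 and all embryo and L3 libraries, so that in L1 the sequencer cannot be told apart from the replicate. In these bulk samples, fewer cells of a type and less RNA per cell cannot be told apart either.

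One library decided most of the membership. When the L1 GFP-positive replicate 3 was left out of the rule, it took 31 of the 200 rows again. Leaving out any other sorted library gave between 138 and 189 of them. In the 200 rows taken without the L1 pair of that number, the median E measured in the left-out pair alone was 0.37, and 43 of 200 were below 0. The same procedure gave a negative median in each of the other 7 left-out pairs, from -3.72 in L1 pair 1 to -0.81 in L3 pair 1. Most rows chosen without L1 pair 3 were thus not lower in its GFP-positive cells.

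The values that chose the rows are given as a description, with no test. E had a median of -1.73 in embryo with a range of -3.02 to -1.06, a median of -1.97 in L1 with a range of -5.88 to -1.04, and a median of -1.44 in L3 with a range of -2.85 to -1.05. Over all 8663 eligible rows the medians were -0.43, -0.10 and -0.16. The GFP-positive mean was 26.5% of the GFP-negative mean for the median member in embryo, 23.8% in L1 and 35.8% in L3, and 0 of the 200 rows were at 0 in every GFP-positive library. The word excluded is thus stronger than these values: the rows were lower in GFP-positive cells, and each had reads in at least 1 GFP-positive library.

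**Figure D1:**
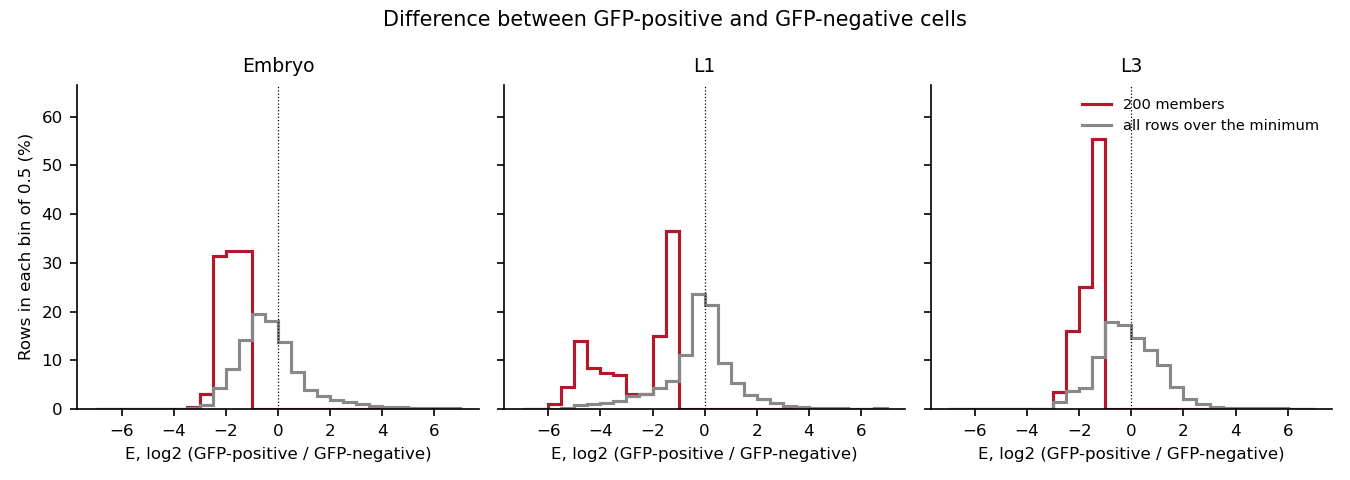
Distribution of E, the log2 ratio of GFP-positive to GFP-negative mean normalised counts with a pseudocount of 10, as the percentage of rows per bin, for the 200 GFP-low rows and for all 8663 eligible rows in embryo, L1 and L3. The members lie below 0 by the rule, and in L1 they form a group below -3 apart from the majority between -2 and -1.

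The stage that limited a row, that is where its E was largest, was embryo for 38 rows, L1 for 58 and L3 for 104. The last rows inside the rule had largest values of -1.0444 and -1.0442, both in L1. The first rows outside had -1.0414 each, both in L3, so no gap marks the border. In L3, GFP-positive libraries all lay below GFP-negative libraries for 185 rows. The counts were 180 in L1 and 143 in embryo, and the remaining rows overlapped between the fractions. Among the eligible rows 41.1% were apart in this direction in L3, 30.8% in L1 and 37.1% in embryo, and nothing is read from the difference, because these values chose the rows.

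The row with the lowest largest E was row 4489, a row of low level. Its normalised counts were 20.4, 19.6 and 12.5 in embryo GFP-positive cells, against 111, 127 and 105 in embryo GFP-negative cells. In L1 they were 22.2 and 8.70 in GFP-positive cells, against 312 and 161 in GFP-negative cells. In L3 they were 55.6, 19.9 and 31.2 in GFP-positive cells, against 79.5, 247 and 183 in GFP-negative cells. At none of the 3 stages did the fractions overlap, although the L3 gap between 55.6 and 79.5 was narrow.

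Row 4080 came second and was more abundant in larvae. It had 28.5 and 144 normalised counts in L1 GFP-positive cells, against 495 and 8136 in L1 GFP-negative cells. In L3 it had 274, 1934 and 494 in GFP-positive cells, against 3548, 1581 and 4677 in GFP-negative cells. The L1 replicates of GFP-negative cells were far apart, and in L3 the fractions overlapped through GFP-positive replicate 2 and GFP-negative replicate 2. In embryo the GFP-positive libraries had 32.2, 178 and 27.2, against 132, 352 and 531 in GFP-negative libraries, and these overlapped as well.

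**Figure D2:**
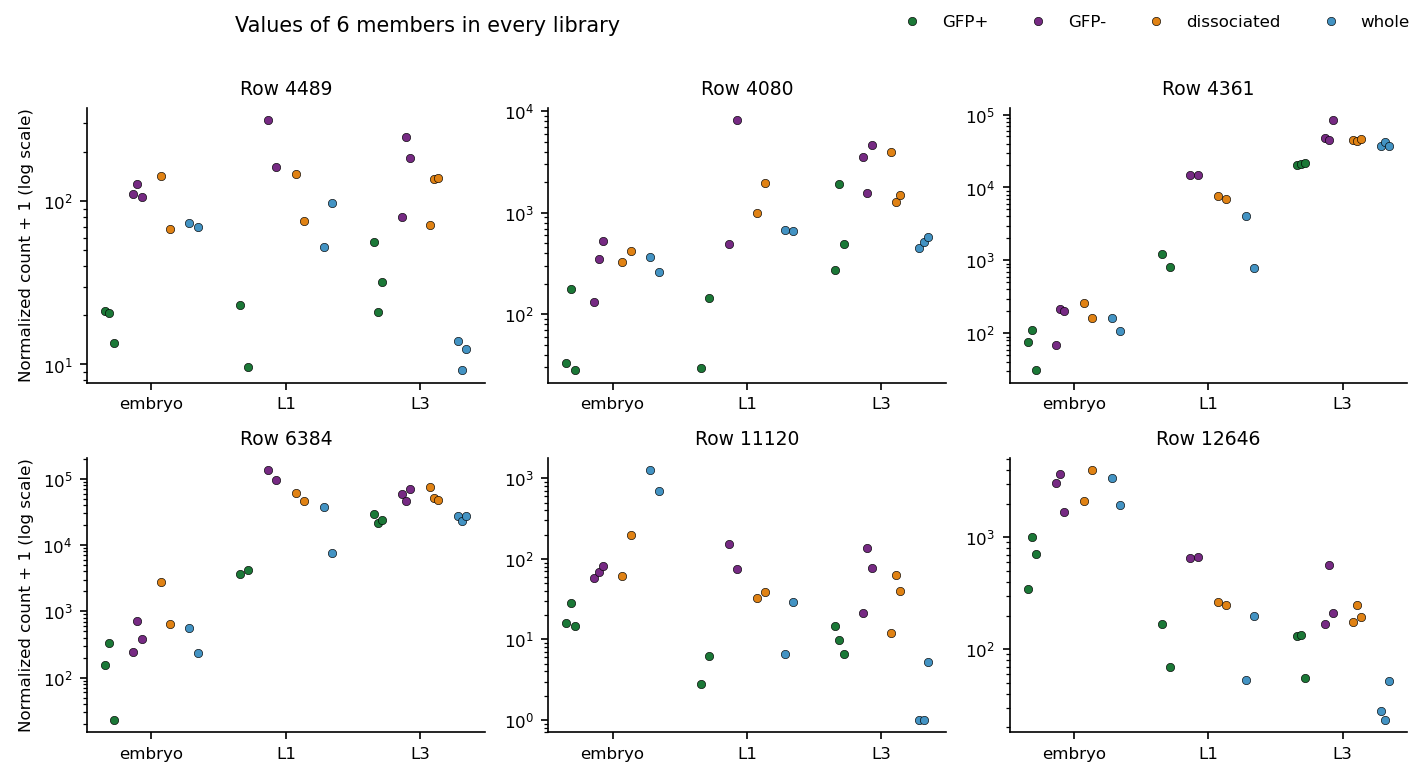
Normalised counts plus 1 on a log axis for 6 members, by stage and fraction, each point 1 library. Rows 4489 and 4080 were the 2 lowest by the rule, rows 4361 and 6384 were high in L3, and rows 11120 and 12646 were low in whole L3 larvae.

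The GFP-low rows together took a small share of each library. In L1 they carried 0.294% and 0.420% of all counts in GFP-positive cells, against 5.45% and 5.04% in GFP-negative cells. In L3 they carried 1.95%, 1.47% and 1.47% in GFP-positive cells, against 4.07%, 3.68% and 4.56% in GFP-negative cells. In embryo they carried 0.282%, 0.823% and 0.475% in GFP-positive cells, against 1.62%, 2.06% and 2.22% in GFP-negative cells. No GFP-positive library reached a GFP-negative one of its stage, which the choice of rows fixes. The largest single share was 0.754%, for the most abundant member in an L1 GFP-negative library, and the 10 most abundant members carried 38.8% to 65.2% of the members' counts in a library.

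Unsorted libraries did not enter the rule, although the sorted cells that chose the rows had been dissociated as well. In dissociated L1 cells the share was 3.70% and 3.29%, against 2.17% and 2.03% in whole L1 larvae. In dissociated L3 cells it was 4.62%, 3.40% and 3.30%, against 1.80%, 1.77% and 1.83% in whole L3 larvae. In dissociated embryo cells it was 1.79% and 1.83%, against 2.08% and 1.82% in whole embryos. Dissociated larval cells held the larger share in every library, and the embryo fractions overlapped.

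**Figure D3:**
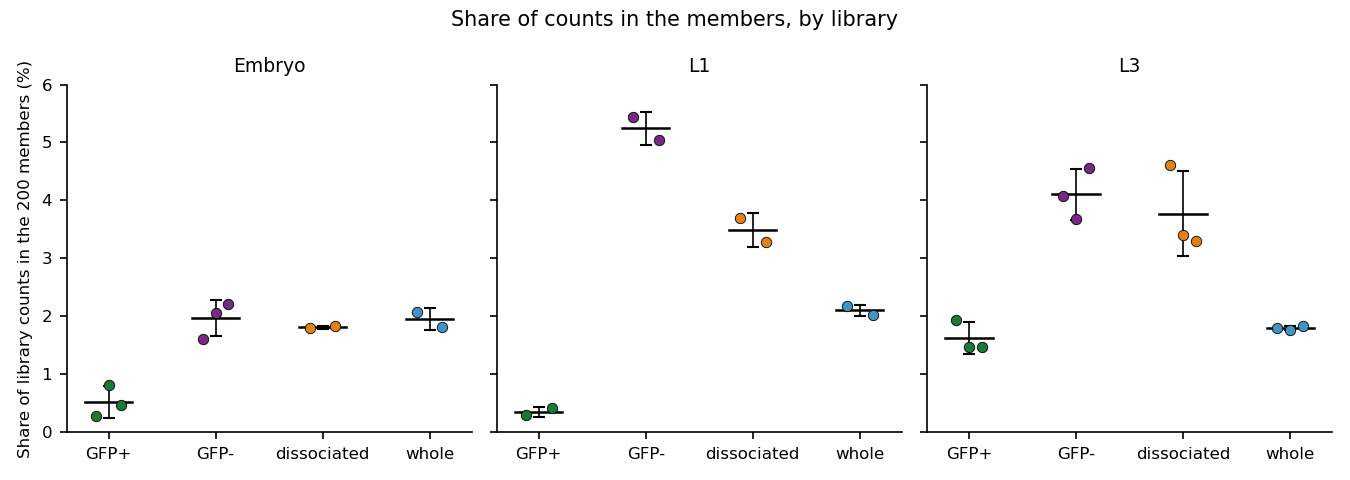
Share of all counts carried by the 200 GFP-low rows in each library, in percent, by stage and fraction, with a point for each library, a line for the group mean and an error bar of 1 SD. In L3 whole larvae sit near 1.80% and dissociated cells between 3.30% and 4.62%.

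The mean of unsorted dissociated cells lay between the means of the sorted fractions for 124 members in embryo, 161 in L1 and 180 in L3. It lay above the GFP-negative mean for 72, 39 and 20 members and below the GFP-positive mean for 4, 0 and 0. Whole animals differed from this. Their mean lay below the GFP-positive mean for 11 members in embryo, 47 in L1 and 85 in L3, and above the GFP-negative mean for 71, 23 and 1. In whole L3 larvae 85 members were thus below both sorted fractions. These counts were not made over the eligible rows. The rule took rows with a wide gap between the sorted means, which favours a value between them. Nothing is therefore read from these counts about the members.

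Whole animals of different stages were compared in the model of all 30 libraries, where a row is called at an edgeR quasi-likelihood p under 0.05 after Benjamini-Hochberg adjustment over all tested rows. In whole L3 larvae against whole embryos, 31 members were called higher and 81 lower, and the median log2 fold change was -0.88. The backgrounds over all tested rows were 26.1% higher and 28.7% lower, with a median of -0.02. Among the eligible rows, which are the more abundant ones, 18.6% were called higher and 36.5% lower, with a median of -0.40. The members' 81 lower calls of 200 are therefore close to what eligible rows showed. Without embryo whole replicate 3, which left 1 whole-embryo library, the members' calls fell, as did those over all tested rows. The members' median was then -0.91.

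In whole L1 larvae against whole embryos, 33 members were called higher and 74 lower. The median was -0.67 for the members, 0.19 for all tested rows and -0.54 for eligible rows. The backgrounds were 26.3% higher and 26.2% lower over all tested rows, and 16.4% higher and 39.3% lower over eligible rows, so these counts are not a result about the members. Leaving out a whole-embryo or whole-L1 library left 1 library in its group. The members' calls fell in these fits, as did those over all tested rows, so only the members' median is given. It was -0.64 without embryo whole replicate 2, -0.60 without embryo whole replicate 3 and -0.59 without L1 whole replicate 1. Without L1 whole replicate 3 it was -0.85. In whole L3 against whole L1 larvae, 20 members were called higher and 19 lower, with a median of 0.08, which was -0.08 with RLE scaling. The backgrounds were 12.4% and 12.5% over all tested rows, with a median of -0.17. Over eligible rows they were 19.1% higher and 11.5% lower, with a median of 0.15. Scaled by library totals, the members' split became 8 higher and 25 lower. Of all tested rows 6.27% were then higher and 23.3% lower, with a median of -0.63. Without L3 whole replicate 3 the members' higher count was 9, and over all tested rows higher calls fell from 2078 to 1649. The members' lower count was 8 without L3 whole replicate 1 and 7 without L3 whole replicate 2. Over all tested rows lower calls fell from 2090 to 1202 and 1155. Leaving out L1 whole replicate 1 or 3 left 1 whole-L1 library, and the members' median was then 0.16 or 0.31.

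**Figure D4:**
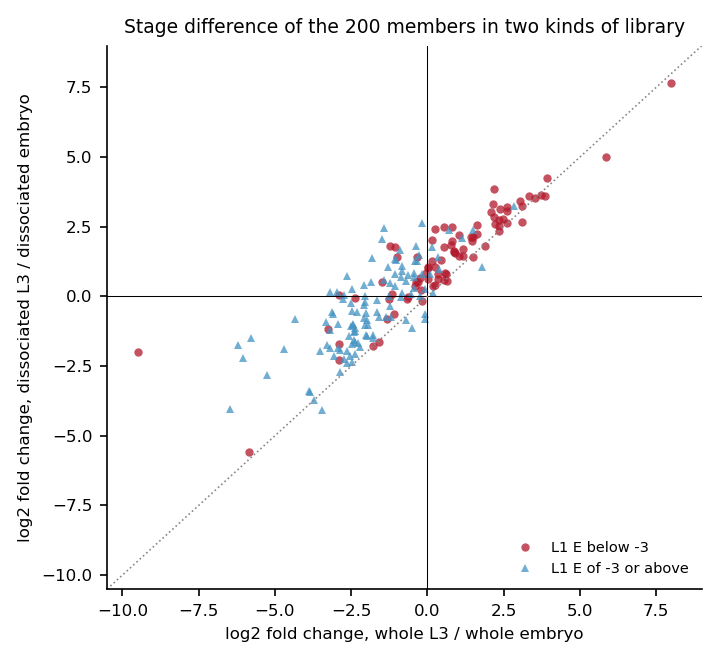
Log2 fold change of whole L3 larvae over whole embryos against that of dissociated L3 cells over dissociated embryo cells, 1 point per GFP-low row. Circles are the 85 rows with an L1 value of E below -3 and triangles the other 115, and the dotted line marks equal values. Most triangles lie left of 0, where whole L3 larvae are lower than whole embryos, and the circles lie on both sides with most to the right.

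Dissociated cells gave a comparison of L3 with embryo from other libraries, in which stage and protocol of dissociation cannot be told apart. In dissociated L3 cells against dissociated embryo cells, 49 members were called higher and 39 lower, with a median of 0.40. The backgrounds were 22.5% and 26.2% over all tested rows, with a median of 0.05. Over eligible rows they were 18.7% and 30.5%, with a median of -0.19. Of the 31 members called higher in whole L3 larvae, 30 were called higher in dissociated L3 cells and 0 lower. Of the 81 called lower in whole L3 larvae, 39 were called lower and 0 higher in dissociated cells. Of the 88 not called in whole animals, 19 were called higher in dissociated L3 cells and 69 were not called. The same agreement was not counted over eligible rows, so these counts are not a result about the members. Without dissociated embryo replicate 2, the counts were 26 higher and 20 lower.

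Row 4361 had the highest fold change of whole L3 larvae over whole embryos among the members. Its normalised counts were 36747, 41590 and 37523 in whole L3 larvae, against 162 and 105 in whole embryos. The groups lay far apart, and the log2 fold change was 7.99 ± 0.74 (SE, edgeR adjusted p = 4.12e-08). In dissociated cells it had 45290, 43202 and 46769 in L3, against 259 and 159 in embryo, with a log2 fold change of 7.65 ± 0.73 (SE, edgeR adjusted p = 4.8e-08). Whole L1 larvae had 4109 and 794, between the stages and unlike each other.

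Row 6384 came next and was among the abundant members. It had 27739, 22689 and 27049 normalised counts in whole L3 larvae, against 561 and 236 in whole embryos. The log2 fold change was 5.84 ± 0.91 (SE, edgeR adjusted p = 1.47e-05), and the groups did not overlap. In L1 its sorted values were 3696 and 4137 in GFP-positive cells, against 135014 and 94597 in GFP-negative cells. In L3 they were 29671, 21546 and 24147 in GFP-positive cells, against 58499, 46991 and 69521 in GFP-negative cells. This row therefore stood high in larval GFP-negative cells and also in L3 GFP-positive cells. It was low in embryos in every fraction, where its highest library was a dissociated one at 2808.

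Rows 11120 and 12646 had the lowest fold changes. Row 12646 had 27.3, 22.3 and 51.1 normalised counts in whole L3 larvae, against 3404 and 1959 in whole embryos, a log2 fold change of -6.49 ± 0.68 (SE, edgeR adjusted p = 1.46e-07). Row 11120 had 0, 0 and 4.26 in whole L3 larvae, against 1261 and 696 in whole embryos (edgeR adjusted p = 7.36e-07). That rests on 3 raw counts against 3308, a level 727-fold lower with an exact 95% counting interval of 249 to 3528. Neither row's whole-animal groups overlapped. In dissociated cells row 12646 had 173, 247 and 193 in L3, against 2098 and 3973 in embryo. Row 11120 had 11.1, 61.7 and 38.6 in dissociated L3 cells, against 59.6 and 199.6 in dissociated embryo cells, and these overlapped.

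The members did not follow 1 stage course. In whole animals the highest stage mean was embryo for 101 members, L1 for 71 and L3 for 28, where 44.2% of eligible rows peaked in embryo, 29.8% in L1 and 25.96% in L3. In dissociated cells the numbers were 68, 65 and 67, against 44.6%, 28.1% and 27.3% of eligible rows. In GFP-positive cells, whose values entered the rule, embryo was the peak for 65 members, L1 for 25 and L3 for 110, where the eligible rows had 41.8%, 30.8% and 27.5%. In GFP-negative cells 61, 86 and 53 members did, against 41.8%, 30.97% and 27.2%.

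L1 values split the members into 2 kinds, described here with a bound of -3 chosen after the values were seen. E in L1 was below -3 for 85 rows and at or above it for 115. The 85 rows were low in both L1 pairs, with medians of -4.26 in pair 1 and -4.24 in pair 3. The 115 rows had -2.59 in pair 1 and -0.61 in pair 3. Their median normalised counts were 50.7 and 216 in the L1 GFP-positive libraries of replicates 1 and 3, against 413 and 325 in the GFP-negative libraries. The difference between the pairs thus lay mainly in the GFP-positive libraries.

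The whole-animal values of these kinds are given as a description. They are not independent of the split, since a low L1 value of E goes with a high L1 GFP-negative level, whose median was 4050 in the 85 rows and 375 in the 115. Of the 85 rows, 32 were called higher and 6 lower in whole L1 larvae against whole embryos, with a median log2 fold change of 0.995. Of the 115 rows, 1 was called higher and 68 lower, with a median of -2.13. Among eligible rows 16.4% were called higher and 39.3% lower in this comparison. In whole L3 larvae against whole embryos, 29 of the 85 were called higher and 10 lower, and 2 of the 115 were called higher and 71 lower. Among eligible rows 18.6% were higher and 36.5% lower there. Other eligible rows with an L1 E below -3 numbered 346. Of these, 187 were called higher and 26 lower in whole L1 larvae against whole embryos, and 129 higher and 53 lower in whole L3 larvae. The course of the 85 rows was thus not particular to the members. The 115 rows had no such set beside them. No test was made of the difference between the kinds.

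The stage counts depended on the library named above. The 200 rows taken with L1 GFP-positive replicate 1 as the only L1 GFP-positive library had 0 called higher and 106 lower in whole L1 larvae against whole embryos. In whole L3 larvae against whole embryos they had 0 called higher and 67 lower. The altered rule took 7 of the 85 rows and 24 of the 115 again.

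Dissociation is the step between whole animals and unsorted cells, and its libraries did not enter the rule either. The sorted cells that chose the rows had gone through the same dissociation, however, and whole animals had not. A rule that asks for a GFP-negative mean of at least 50 can thus favour rows that are higher after dissociation. The comparison is therefore not independent of the choice, and the part of the rule in it was not tested. In dissociated L3 cells against whole L3 larvae, 47 members rose and 0 fell, with backgrounds of 7.85% higher and 11.5% lower over all tested rows and 12.1% higher among eligible rows. The median log2 fold change of the members was 1.02, against 0.04 over all tested rows and 0.17 over eligible rows. It was above 0 for 196 of 200 members, and for 58.8% of eligible rows. All 3 dissociated libraries exceeded all 3 whole-larva libraries for 144 members, against 31.5% of eligible rows. By edgeR 103 members were higher and 0 lower at an unadjusted p under 0.05, where 16.2% of all tested rows were higher and 17.8% lower. DESeq2 called 76 higher and 0 lower, with 12.03% and 16.1% of all its tested rows.

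Each pair of equally numbered L3 libraries leaned the same way. The median log2 ratio of dissociated to whole, with a pseudocount of 10, was 1.15, 0.86 and 0.71 in replicates 1, 2 and 3, and it was above 0 for 194, 186 and 185 members. The number called was less stable than the direction. Dropping L3 whole replicate 1 left 14, and dropping L3 whole replicate 2 left 15. Over all tested rows the higher calls fell from 1316 to 498 and 600. Dropping dissociated replicate 1 left 27, and dropping dissociated replicate 3 left 25, with 950 and 574 higher over all tested rows. A fit to the compared groups alone called 142 members higher and 1 lower. In that fit 2878 of 14222 tested rows were higher and 3499 lower.

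**Figure D5:**
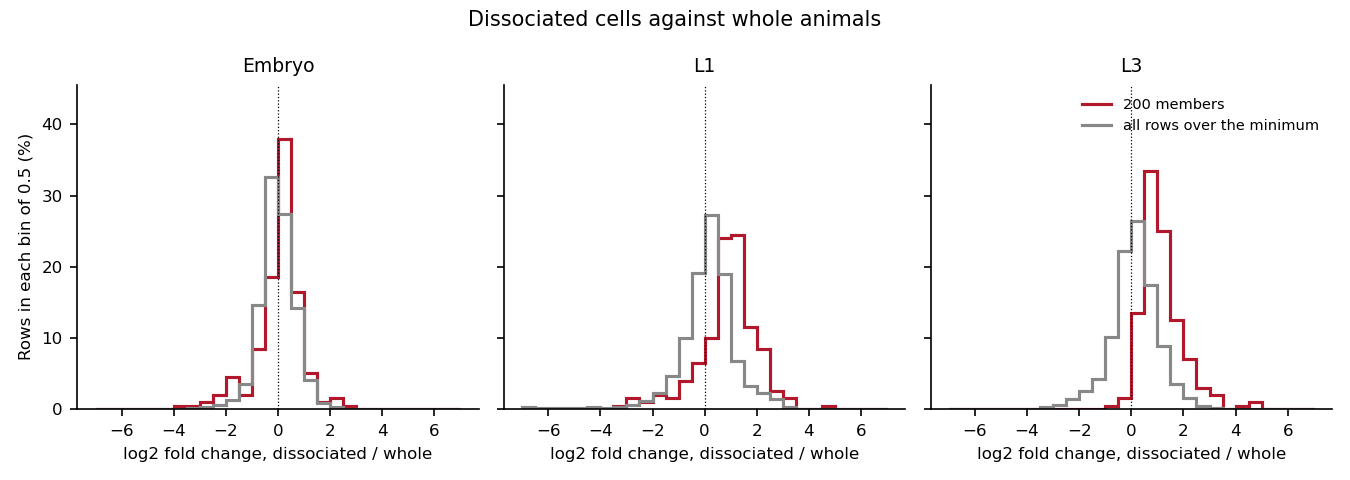
Distribution of the log2 fold change of dissociated cells over whole animals in embryo, L1 and L3, as the percentage of rows per bin, for the 200 GFP-low rows and for all 8663 eligible rows. The L1 and L3 distributions of the members are shifted to the right of 0, with medians of 0.97 and 1.02, and the embryo one has a median of 0.18.

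Rows high in GFP-positive cells moved in the opposite direction in the same libraries. The 200 rows with the highest smallest E, which mirror the rule, had 0 called higher and 178 lower in dissociated L3 cells against whole L3 larvae, with a median log2 fold change of -2.81. Their part in the members' rise was not tested. The next 200 rows by the rule had 50 called higher and 0 lower, with a median of 1.10, so the shift was not particular to the 200 members. Rows taken with a single L1 GFP-positive library had 43 called higher and 0 lower.

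Row 16187 had the highest fold change of this comparison among the members. It had 19.9, 69.2 and 138 normalised counts in dissociated L3 cells, against 0, 5.88 and 1.42 in whole L3 larvae. The log2 fold change was 4.85 ± 1.19 (SE, edgeR adjusted p = 0.00658). The groups did not overlap, and the whole-larva libraries were close to or at 0. In L1 it had 262 and 164 in dissociated cells, against 4.49 and 14.0 in whole larvae, so it was higher in dissociated cells at both larval stages.

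Row 11120, already described for its low level in whole L3 larvae, came second. It had 87 raw counts in dissociated L3 cells against 3 in whole L3 larvae, a ratio of 25.3 with an exact 95% counting interval of 8.36 to 125 (edgeR adjusted p = 0.00368). Row 4489, first by the rule, had 70.8, 137 and 138 normalised counts in dissociated L3 cells, against 12.8, 8.23 and 11.4 in whole L3 larvae. Its log2 fold change was 3.44 ± 0.58 (SE, edgeR adjusted p = 0.000249), without overlap. Row 4080 had 3988, 1285 and 1511 in dissociated L3 cells, against 449, 520 and 578 in whole L3 larvae, and its log2 fold change of 2.20 ± 0.87 did not pass (SE, edgeR adjusted p = 0.0757).

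In dissociated L1 cells against whole L1 larvae, 23 members were called higher and 2 lower, with backgrounds of 3.15% higher and 6.65% lower over all tested rows, and 5.32% and 4.93% over eligible rows. The median log2 fold change was 0.97, against 0.20 over eligible rows, and 166 of 200 values were above 0, as were 60.6% of eligible rows. Scaled by library totals, 17 members were called higher and 4 lower, with 2.29% and 7.97% of all tested rows. Dropping 1 of these libraries left 1 library in its group. The calls moved in each such fit, also over all tested rows, so only the members' median is given. It was 0.95 without dissociated replicate 1 and 0.996 without dissociated replicate 3. Without whole replicate 1 it was 0.95, and without whole replicate 3 it was 1.12. A fit to the compared groups alone called 0 members higher, and 0 of all 15717 tested rows were called higher or lower. The members' median in that fit was 0.98. Of the 23 members called higher in L1, 7 were also called higher in L3, which is 7 of the 47 called there.

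The 2 members called lower in L1 are named because they were the only such rows, a choice made after their values were seen. Row 9499 had 39.2 and 90.9 normalised counts in dissociated L1 cells, against 140.2 and 1070.2 in whole L1 larvae, a log2 fold change of -3.08 ± 0.90 (SE, edgeR adjusted p = 0.0319). Row 12829 had 64.5 and 32.7 in dissociated L1 cells, against 96.5 and 569 in whole L1 larvae, a log2 fold change of -2.58 ± 0.80 (SE, edgeR adjusted p = 0.0428). In both rows the whole-larva replicates were far apart, with replicate 3 high. Without that replicate the fold changes were -1.02 and -0.83 and neither row was called. Leaving out dissociated replicate 1 also lost both calls, at -2.60 and -3.21, as did leaving out dissociated replicate 3, at -3.87 and -2.29.

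In dissociated embryo cells against whole embryos, 0 members were called higher and 1 lower by edgeR, with backgrounds of 0.131% and 0.412%. At an unadjusted p under 0.05, 8 were higher and 16 lower, with 6.03% and 5.86% of all tested rows. DESeq2 called 4 higher and 9 lower, with 2.05% and 2.53% of all its tested rows. These counts are few and are not a result about the members. The median log2 fold change was 0.18, and -0.02 when scaled by library totals. The row called lower, row 11562, was named after its value was seen. It had 267 and 937 normalised counts in dissociated embryo cells, against 8566 and 7658 in whole embryos, a log2 fold change of -3.75 ± 0.80 (SE, edgeR adjusted p = 0.0343). It was not called without dissociated replicate 1, at -3.08, without whole replicate 2, at -3.67, or without whole replicate 3, at -3.80.

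Whether dissociation acted differently in L3 and L1 was tested by the difference of the 2 effects. Of the 200 members, 2 had a larger effect in L3 and 0 a smaller one by edgeR, with backgrounds of 2% and 0.692%. At an unadjusted p under 0.05 the numbers were 16 and 1, with 8.90% and 7.12% of all tested rows. DESeq2 called 7 and 0, with 4.75% and 2.46% of all its tested rows. The counts of larger effects lie near or below these backgrounds and are not a result about the members. The median difference was 0.13. Leaving out an L1 library left 1 library in its group, so only the median difference is given for these fits. It was 0.13 without L1 whole replicate 1 and 0.08 without L1 whole replicate 3. Without dissociated L1 replicate 1 it was 0.27, and without dissociated L1 replicate 3 it was 0.16. Without L3 whole replicate 2, 1 member was called higher. In that fit 127 of 16758 tested rows were higher, against 335 with all libraries.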

How the data were processed

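The submitters' processing notes name the build ce11 and, with no role or order, DESeq2 1.28.1, featureCounts 1.6.4, HISAT2 2.1.0, fastp 0.20.0, deepTools 3.2.0 and SAMtools 1.9. Of the deposited tables, the raw count table holds whole-number counts in 16762 rows. The deposited normalised signal equals those counts times 1 constant per library, with a largest relative deviation of 5e-07. It served for E, levels and overlaps. The deposited log2-scale table and the reference annotation were not used, since no row is tied to a gene. The counting of overlapping or near-identical genes and the use of strand are not given in the sources used here.

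The tests on raw counts used edgeR 4.0.16 (R 4.3.3). Its function filterByExpr with a minimum count of 10 left 16758 rows, all 200 members among them, scaled by TMM. The quasi-likelihood model had 1 mean per group over 30 libraries and 18 residual degrees of freedom. The F-tests were two-sided, and p-values were adjusted by Benjamini-Hochberg over all tested rows, with a threshold of 0.05. SE is the absolute log2 fold change divided by the square root of F. Counting intervals are exact binomial ones and cover counting error only. Replicates differed by far more than sampling noise, and p-values measure the spread between these libraries. DESeq2 1.42.0 was an alternative.

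The procedure was tested on simulated counts with 200 of 16758 rows changed. Between 20% and 37% of 4-fold changes were called, 2% for the difference of L3 and L1 dissociation effects, and at most 4% of 2-fold changes. Unchanged rows made up at most 16.1% of calls, in whole L3 larvae against whole embryos. In the data themselves 4374 rows were called higher and 4802 lower in that comparison, far more than the 200 changed here. The simulated shares therefore do not give the recovery in the stage comparisons.

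The named rows are the 2 with the lowest largest E, and the 2 highest and 2 lowest log2 fold changes among called members with non-overlapping groups in whole L3 larvae against whole embryos and in dissociated L3 cells against whole L3 larvae. Rows named after their values were seen are given as such. The members and lists were chosen with earlier results of these data known. The planned gene lists could not be applied to rows without identifiers.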

Additional observations from a re-analysis of the deposited data

Results flagged for a closer look

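In 2 members the effect of dissociation differed between L3 and L1 by the test of the difference itself. As 2 of 200 with a larger effect in L3, against 2% of all tested rows and 1.42% of eligible rows, this is not a result about the members as a group. Row 3612 had 587, 937 and 878 normalised counts in dissociated L3 cells, against 204, 207 and 299.6 in whole L3 larvae. In L1 it had 102 and 371 in dissociated cells, against 280.5 and 1390.3 in whole larvae. The effect in L3 minus that in L1 was 3.47 ± 0.79 on the log2 scale (SE, edgeR adjusted p = 0.0187), with no overlap in L3 and an overlap in L1. Row 12829 had 25.5, 39.1 and 34.3 in dissociated L3 cells, against 8.02, 2.35 and 7.10 in whole L3 larvae. In L1 it had 64.5 and 32.7 in dissociated cells, against 96.5 and 569 in whole larvae, and the difference of the effects was 5.11 ± 1.09 (SE, edgeR adjusted p = 0.0133). Both rows were highest in L1 whole replicate 3 among the L1 libraries, and its part in the difference was not tested. Without that library the differences were 1.94 and 3.37 and neither was called. Neither was called without dissociated L1 replicate 1, at 2.82 and 5.75, without dissociated L1 replicate 3, at 4.77 and 4.86, or when the fit held the 4 compared groups alone, at 3.64 and 5.28. Row 3612 was not called without L3 whole replicate 2 either, at 3.53. In each of these fits calls fell over all tested rows as well, and leaving out an L1 library left 1 library in its group.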

How the results depend on the processing

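The number of members that the rule took again was 31 to 189 over the left-out sorted libraries, and 154 to 180 with another pseudocount, minimum or scaling. Chosen without L1 pair 3, 200 rows had a median E of 0.37 in that pair, against -1.78 for the members. With L1 GFP-positive replicate 1 alone (chosen after seeing the data), 0 rows were called higher in whole L1 against embryo and 0 in whole L3 against embryo. The same choice gave 4 lower in whole L3 against L1, 27 higher and 13 lower in dissociated L3 against embryo cells, 0 lower on dissociation in embryo and in L1, and 0 higher for the difference of the L3 and L1 dissociation effects. Leaving out 1 library gave 15 to 31 higher and 55 to 67 lower in whole L1 against embryo, 7 to 14 higher and 7 to 13 lower in whole L3 against L1, and 18 to 30 higher and 64 to 74 lower in whole L3 against embryo. On dissociation it gave 0 to 0 higher and 0 to 1 lower in embryo, 0 to 15 higher and 0 to 8 lower in L1, and 14 to 50 higher and 0 to 0 lower in L3. It gave 26 to 49 higher and 20 to 35 lower in dissociated L3 against embryo cells, and 0 to 12 higher and 0 to 2 lower for the difference of effects. Without the HiSeq X-ten libraries, 16 were higher in whole L1 against embryo, 10 in whole L3 against L1, 5 in dissociated L1, and 8 higher and 1 lower for the difference. With RLE scaling 2 were lower in dissociated embryo cells and 4 in dissociated L1 cells, against 0.61% and 8.06% of all tested rows. With library totals 8 were higher in whole L3 against L1, against 6.27% of all tested rows. Lower were 2 in dissociated embryo cells and 4 in dissociated L1 cells, against 0.746% and 7.97% of all tested rows. Higher were 74 in dissociated L3 cells and 4 for the difference, against 13.6% and 3.17% of all tested rows. With only the compared groups, 31 were higher in whole L3 against L1, with 2200 of 15066 tested rows. In dissociated embryo cells 5 were lower, with 94 of 15134. In dissociated L1 cells 0 were higher and 0 lower, and 0 of all 15717 tested rows were called. In dissociated L3 cells 142 were higher and 1 lower, with 2878 and 3499 of 14222. For the difference 0 were higher, with 82 of 15860. DESeq2 called 4 higher and 9 lower in dissociated embryo cells, with 2.05% and 2.53% of all its tested rows. It called 42 higher and 7 lower in dissociated L1 cells, with 6.77% and 12.4%. In dissociated L3 cells it called 76 higher, with 12.03%, and for the difference 7 higher, with 4.75%. Where a group held 2 libraries, leaving out 1 left 1 library in it, and calls over all tested rows changed in these settings too. The cause of these moves was not tested. Scaling moved the median of all rows in whole L1 against embryo from 0.19 (TMM) to 0.55 (RLE), while the members' median minus it was -0.86 and -0.87. With TMM the eligible rows had a median of -0.54 there, against -0.67 for the members. In whole L3 against L1 the members' median was -0.08 with RLE and -0.43 with totals, and 0.25 and 0.20 relative to all rows. In dissociated embryo cells it was -0.02 with totals and 0.22 relative to all rows. The replicate numbers of dissociated and whole libraries were not taken as pairs: deviations of equally numbered L3 libraries correlated across rows at 0.17, 0.08 and 0.18, not all above 0.1, and dissociated L3 replicate 2 correlated best with whole replicate 1, at 0.12. With a replicate block the call of row 11562 was lost, leaving 0 lower in dissociated embryo cells, with 25 of all 16758 tested rows. In dissociated L3 cells 55 members were higher, with 1632 of all rows. In dissociated L1 cells 25 were higher and 2 lower, with 773 and 1243 of all rows. In whole L3 against embryo 31 were higher and 75 lower, with 4428 and 4755 of all rows. In the simulated data, run at this size alone, at most 4% of 2-fold changes were called.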

Other observations

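The level of the median member was read in libraries that took no part in choosing the rows, although the sorted cells had been dissociated too. It was 878, 656 and 746 normalised counts in dissociated L3 cells, against 386, 382 and 413 in whole L3 larvae. In L1 it was 583 and 624 in dissociated cells, against 273 and 471 in whole larvae. In embryo it was 506 and 479.7 in dissociated cells, against 586 and 539 in whole embryos. The larval fractions did not overlap in this value, with dissociated cells higher. Both dissociated embryo libraries lay below both whole-embryo ones, whereas the members' shares of counts had overlapped there.

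Equally numbered L1 libraries gave a median log2 ratio of dissociated to whole of 0.90 in replicate 1 and 0.72 in replicate 3, above 0 for 175 and 147 members. The single equally numbered embryo pair, replicate 2, gave -0.04, above 0 for 92 members. In the pairs of libraries the eligible rows had medians between -0.03 and 0.15.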
